A study of Bos taurus with 14 samples.

Results

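The genes described here encode the subunits of the mitochondrial respiratory chain (complexes I to IV) and of the ATP synthase (complex V), measured in liver and in blood neutrophils of Holstein cattle on the day of a single oral dose of a carotenoid and 7 days later. They were chosen by name: a probe belongs to the set when its gene name, or the symbol in brackets in its description, starts with one of the usual prefixes of these subunits (NDUFA, NDUFB, NDUFC, NDUFS and NDUFV for complex I, SDHA to SDHD for complex II, UQCR and CYC1 for complex III, COX4 to COX8 for complex IV and ATP5 for complex V), with COX6A2 left out. This gave 72 of the 15208 spots that were not controls, which hold 71 of the 15011 distinct probe sequences and stand for 70 of the 5889 genes named on the array. Complex I has 34 probes for 33 genes, complex II 4 probes, complex III 5, complex IV 13 and complex V 15. NDUFA4 and NDUFA4L2 are counted with complex IV despite their prefix.

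Complexes I and II feed electrons from NADH and succinate into the inner mitochondrial membrane, complex III passes them on to cytochrome c, and complex IV transfers them to oxygen. Complexes I, III and IV pump protons as they do so, and the ATP synthase uses the returning protons to make ATP. Liver cells hold many mitochondria and rely on this pathway, whereas mature neutrophils hold few and draw most of their ATP from glycolysis. The genes measured here lie in the nuclear genome; of the 13 subunits encoded by mitochondrial DNA, 0 have a probe on this array.

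RNA was measured on 14 custom bovine arrays with 1 dye, Cy3. Liver came from animals 58, 61 and 66 and peripheral blood neutrophils from animals 25, 26, 32 and 34, each sampled on day 0 and on day 7. All were Holstein heifers or steers, and all received β-cryptoxanthin (β-CRX), a yellow-orange carotenoid that can be converted to vitamin A, given orally on day 0 at 0.2 mg per kg of body weight. No untreated animals were analysed here, so the dose and any other effect of the 7 days cannot be told apart, and the labels do not say whether the day 0 sample preceded the dose. The sources used here do not give the animals' ages, the purity of the neutrophils or the way the liver was sampled. The liver arrays lay on one slide and the neutrophil arrays on another, with day 0 in the first row of arrays and day 7 in the second, so tissue, slide and animals, and likewise day and position on the slide, cannot be told apart.

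Levels are log2 signals set against the 75th percentile of their array, so that a level of 0 is that percentile and a difference of 1 is a doubling. Between 57.1% and 76.7% of the spots on an array were well above background, and the weakest array was day 7 of neutrophil animal 34 (median signal 48.2, against 100.2 to 204 on the others). Hepatocyte markers fitted the liver label (13 to 14 of 14 well above background in each liver array, 1 to 3 in each neutrophil array). Of the neutrophil markers, 8 of 8 were well above background in each neutrophil array and 6 to 7 in each liver array. Their summed levels were 9.34 to 10.4 in neutrophils against 1.52 to 3.43 in liver. LTF, 1 of these markers, went the other way on day 0, with a mean of 1.74 in liver and -0.36 in neutrophils. Markers of another cell type moved in liver: of 11 skeletal muscle genes, 2 to 4 exceeded background clearly in each day 0 array and 10 to 11 in each day 7 array, and their summed level went from between -1.76 and -0.26 to between 2.37 and 4.33.

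The subunit genes were measured throughout. All 71 probes were well above background on all 14 arrays, a property that 47.8% of all probes shared, none was saturated, and 64 of the 71 had a mean level above the array's 75th percentile. The share of G and C in the members' probes ran from 28.3% to 60%, with the same median (43.3%) as all probes. The hexamer AATAAA, the usual polyadenylation signal, stood in 21 of the 71 probes on the strand printed in the files (29.6%), against 11.3% of all probes, and its reverse complement TTTATT in 2 (against 4.18% of all probes).

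The probe sequences on which the results turn are shown as the deposited array files give them, 5′ to 3′; the middle 30 of a probe's 60 bases are printed for most probes, and all 60 for SDHB, COX4I1 and ATP5MC3. The first set belongs to the 4 genes that passed the test in liver and to NDUFA5, which had the lowest p in neutrophils.
COX7C: ggagcatattaagaggtgcagtctcttaaa
NDUFS8: tgaccggccgacccgcggcccctcctgccc
NDUFS6: agtaatggctatgatgtattgttccacgaa
SDHD: ttggtttcccactgggaatttctaatgtga
NDUFA5: agcctccagccagccaatggaaatggccaa

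The second set includes the probes of related genes. The 3 genes for subunit c of the ATP synthase (ATP5MC1, ATP5MC2 and ATP5MC3) encode the same mature protein, and COX7A1 and COX7A2 are the muscle-type and the liver-type isoform of 1 subunit. The longest run of bases that any pair of the ATP5MC probes shared was 8 and that of the COX7A probes 7; how well each probe matches the transcripts of the related genes was not tested. SDHB and COX4I1 are shown as the probes of a subunit whose signal differed widely between the tissues and of one whose signal did not pass the test.
ATP5MC1: ctggagtgtgctaacctttaccattaaaca
ATP5MC2: tacctccccaggcaacctggggaaagtagt
ATP5MC3: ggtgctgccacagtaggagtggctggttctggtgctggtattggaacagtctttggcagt
COX7A1: ggcatcaataaatgtgctggtttcctgggg
COX7A2: tcaatatttattgacttgtattagctgcca
SDHB: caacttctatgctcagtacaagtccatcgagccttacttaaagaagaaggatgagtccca
COX4I1: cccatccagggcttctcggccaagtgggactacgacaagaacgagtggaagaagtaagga

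Most subunit transcripts were higher in liver than in neutrophils on day 0, and complex IV was the complex in which few were. Of the 71 probes, 51 passed the test as higher in liver and 8 as lower (limma over 3 liver and 4 neutrophil arrays, Benjamini-Hochberg adjusted p under 0.05 over 11494 probes tested). Over all probes tested, 39.7% passed as higher and 43.5% as lower, 83.1% in all, so that a difference between these tissues is the rule on this array. The median difference of the members was 1.22, against -0.12 over all probes tested. By complex the medians were 1.36 for complex I (28 of 34 probes higher, 3 lower), 2.10 for complex II (4 of 4 higher), 0.64 for complex III (3 of 5 higher), 0.064 for complex IV (2 of 13 higher, 4 lower) and 1.56 for complex V (14 of 15 higher, 1 lower). These medians move with the scaling: with quantile normalization of the arrays the members' median was 1.52 and that of complex IV 0.519 (7 higher, 3 lower), while the median of all probes lay at -0.16. In bulk RNA a tissue with fewer cells of a type and one with less RNA per cell cannot be told apart, and here neither can liver from its slide and animals.

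**Figure D1:**
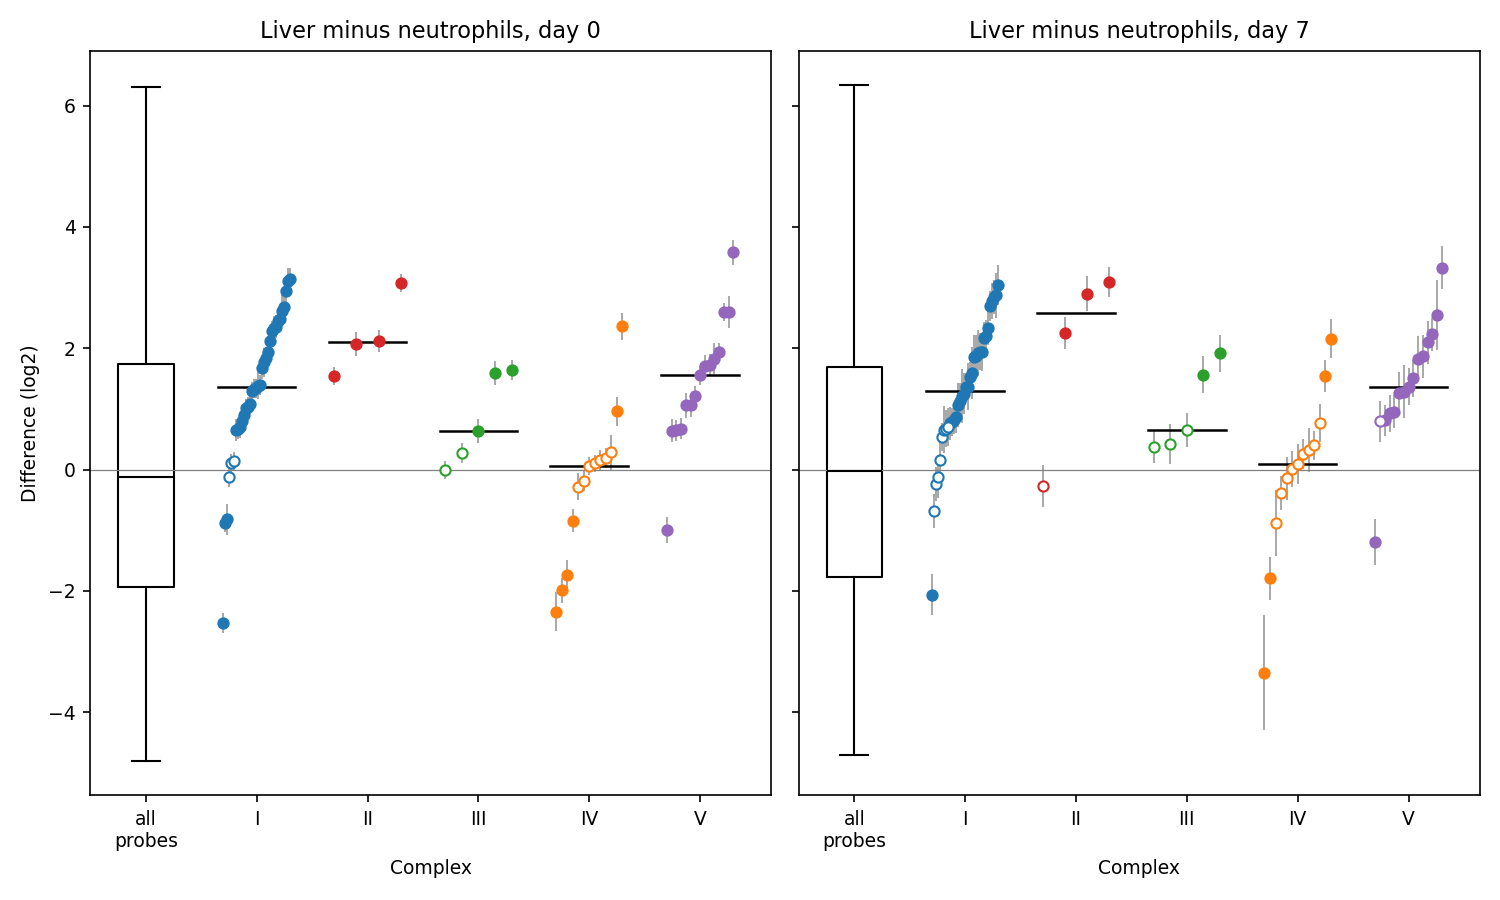
Difference in signal (log2, liver minus neutrophils) of each of the 71 probes by complex on day 0 (left) and day 7 (right), with standard errors; filled points passed the test, open points did not, and short black lines are the medians. The box at the left of each panel gives all probes tested (quartiles, whiskers from the 5th to the 95th percentile); the points of complexes I, II and V lie mostly above 0 on both days, while those of complex IV lie around 0.

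Complex II, succinate dehydrogenase, links the citric acid cycle to the chain. SDHA, its flavin-bearing subunit, had 5.94, 6.01 and 6.19 in the 3 livers and 2.92, 3.05, 2.96 and 2.95 in the neutrophils of animals 25, 26, 32 and 34. The groups lay far apart, and the difference was 3.07 ± 0.14 (SE; 8.42-fold, adjusted p = 2.39e-07 by limma). SDHB, the iron-sulfur subunit, differed by 2.08 (2.43, 2.06 and 2.45 against 0.09, 0.29, 0.58 and -0.01), and the membrane anchors SDHC and SDHD by 2.12 and 1.54. The groups did not overlap in any of the 4 genes. How many of all probes had no overlap was not counted, and 83.1% of those tested passed on day 0.

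In complex I, a set of nuclear genes encodes the catalytic core that takes up NADH and carries electrons along a chain of iron-sulfur clusters to ubiquinone. Of the 6 core genes described here, 5 were higher in liver. NDUFV1, which binds the flavin that accepts electrons from NADH, had 3.90, 3.41 and 4.06 in liver and 0.85, 0.56, 0.52 and 0.77 in neutrophils, a difference of 3.12 ± 0.20 (adjusted p = 1.5e-06 by limma). NDUFS7 differed by 2.34, whereas NDUFS3, NDUFV2 and NDUFS1 differed by 1.34, 0.67 and 0.65. The core genes thus differed by unequal amounts, although their proteins occur once each per complex.

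NDUFS8 was the core gene that passed as lower in liver (-0.82 ± 0.25, adjusted p = 0.0139), and it did not pass with the trend along the spot rows removed (-0.20, adjusted p = 0.491) or with quantile normalization (-0.43, adjusted p = 0.136). That trend, described with the liver results, also bears on the tissue comparison at the edges of the array. Among the accessory subunits NDUFC1 had the highest difference of complex I (3.14 ± 0.19). NDUFV3, an accessory subunit near the NADH site, went the other way: its levels were 1.60, 1.52 and 1.78 in liver and 4.13, 4.44, 3.99 and 4.08 in neutrophils, a difference of -2.53 ± 0.17 (adjusted p = 1.91e-06). NDUFA1 was also lower in liver, by 0.89 on the log2 scale, and NDUFB9, NDUFB8 and NDUFA8 did not pass (-0.13, 0.10 and 0.14). With the row trend removed NDUFA8, in row 15, passed as higher (0.50, adjusted p = 0.0118).

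The ATP synthase has a catalytic F1 head, a ring of c subunits that rotates in the membrane and a peripheral stalk that holds the head still. All 5 genes of the F1 head were higher in liver, from 0.65 for ATP5F1C to 2.59 for ATP5F1E. The 3 c-ring genes were higher by unequal amounts. ATP5MC1 had 4.66, 4.10 and 4.63 in liver and 0.86, 0.68, 0.80 and 1.19 in neutrophils, which gave the highest difference of all 71 probes (3.58 ± 0.21, adjusted p = 7.97e-07). ATP5MC3 differed by 2.60 ± 0.26 (4.11, 4.03 and 4.43 against 1.53, 1.01, 1.78 and 2.04) and ATP5MC2 by 1.72 ± 0.18 (4.01, 3.64 and 3.62 against 2.16, 1.75, 2.17 and 2.05). All 3 sets of levels were separate between the tissues, a property that was not counted over all probes.

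Of the stalk, ATP5PF, ATP5PO and ATP5PD were higher in liver by 1.94, 1.71 and 1.56, and ATP5PB was lower (-0.99 ± 0.21, adjusted p = 0.00241). The sequence for ATP5PB was printed at 3 spots, in rows 63, 137 and 155, whose differences were -1.11, -0.98 and -0.89, so that the direction was the same at each. DMAC2L, also known as factor B and not a structural subunit, is taken by the ATP5 prefix through its older name ATP5S and differed by 1.83.

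In complex III, the Rieske iron-sulfur protein UQCRFS1 and the small subunit UQCR11 were higher in liver by 1.59 and 1.64. The core proteins differed less, UQCRC2 by 0.64 ± 0.19 (adjusted p = 0.0137) and UQCRC1 by 0.28 ± 0.17 (adjusted p = 0.161), and CYC1, which carries the heme that reduces cytochrome c, by -0.01 ± 0.15 (adjusted p = 0.942). Under quantile normalization UQCRC1 (0.72, adjusted p = 0.00163) and CYC1 (0.43, adjusted p = 0.0124) passed as higher in liver, so their values near 0 depend on the scaling.

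Complex IV, cytochrome c oxidase, stood around 0. COX4I1, the ubiquitous isoform of the subunit that binds ATP, had 4.59, 4.61 and 4.64 in liver and 4.46, 4.64, 4.41 and 4.52 in neutrophils. The groups overlapped, with a difference of 0.10 ± 0.14 (adjusted p = 0.503). COX7B, COX7A2, COX6B1, COX5B, COX6A1 and COX7C likewise did not pass, with differences from -0.28 to 0.28. With quantile normalization COX4I1, COX6B1 and COX7A2 did pass as higher in liver (0.55, 0.66 and 0.57). COX6A1 (0.20) and COX7C (0.05) turned positive without passing, so how near the tissues lie depends on the scaling. Complex IV still had the lowest median of the complexes with that normalization (0.519, against 0.921 to 2.49 in the others). COX5A was higher by 0.96.

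The subunits of complex IV that differed most were tissue isoforms and a late-found subunit. NDUFA4, long counted with complex I and since found in complex IV, had 4.88, 4.59 and 4.69 in liver and 2.73, 2.03, 2.06 and 2.60 in neutrophils (difference 2.36 ± 0.22). Its paralog NDUFA4L2, induced by low oxygen in other cells, went the other way, with -4.03, -3.71 and -4.40 in liver and -2.19, -1.85, -2.29 and -1.91 in neutrophils (-1.99 ± 0.21). COX7A1, the isoform of heart and skeletal muscle, had -1.15, -0.81 and -1.33 in liver and 0.82, 1.65, 0.66 and 1.85 in neutrophils (-2.34 ± 0.32, adjusted p = 0.000175), while COX7A2 differed by 0.16. COX6B2, the isoform known from testis, was lower in liver by 1.73 on the log2 scale, and the probe assigned to COX8A by 0.84, which did not pass with quantile normalization (-0.41, adjusted p = 0.0548). The files describe the latter probe as the heart form of subunit VIII, while its accession is that of COX8A in the RefSeq table, so which isoform it reads is in doubt.

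On day 7 the tissues differed in much the same way in the same animals. Of the 71 probes, 45 were higher in liver and 4 lower (34% and 35% of the 10194 probes tested, 69% in all), with a median of 1.22 against -0.03 over all probes tested. The medians by complex were 1.30, 2.57, 0.65, 0.094 and 1.37 for complexes I to V. On both days 44 probes were higher in liver and 4 lower, 11 passed on neither day, and 0 passed in opposite directions. The same counts were not made over all probes, of which 83.1% passed on day 0 and 69% on day 7. ATP5MC1 again had the highest difference (3.33 ± 0.35, adjusted p = 4.5e-05), followed by SDHA (3.09) and NDUFV1 (3.04). NDUFS7, ATP5F1D and COX7A1 differed by 2.84, 2.55 and -3.35. ATP5F1D had 1 low neutrophil array and COX7A1 1 high one, both described with the neutrophils; without those animals the differences were 1.98 (adjusted p = 6.05e-05, without animal 34) and -2.44 (adjusted p = 0.00474, without animal 32). COX7C passed on day 7 only (1.54 ± 0.26, adjusted p = 0.000788) and SDHD on day 0 only (-0.28 on day 7, adjusted p = 0.495), the 2 genes whose day changes differed between the tissues. With the row trend removed COX7C also passed on day 0 (0.68, adjusted p = 0.0146).

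In liver, 3 subunit genes rose between day 0 and day 7 and 1 fell, and the remaining changes were small and mostly upward. Of all 10933 probes tested, 2.67% rose and 1.31% fell (3.98% in all; limma with the animal as a block), so 4 of 71 is near the background. The 4 genes lie at the top and bottom edges of the array, in spot rows 3, 7, 9 and 190 of 192, where probes of every kind moved. With that trend along the rows removed, none of the 4 passed, and 0.302% of all probes did. With the 41 to 55 other probes of each gene's own row as the yardstick, 5 others lay above COX7C, 2 above NDUFS8, 9 above NDUFS6 and 9 below SDHD.

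COX7C encodes a small structural subunit of complex IV. Its level in animals 58, 61 and 66 was 1.80, 1.47 and 0.96 on day 0 and 3.71, 3.67 and 3.52 on day 7. Each animal was higher on day 7 and the days did not overlap; the change was 2.22 ± 0.15 (SE; 4.67-fold, adjusted p = 0.0107 by limma). The other 41 probes of row 3 had a median change of 1.06, and 23 of them also rose. With the row trend removed by a loess curve the change of COX7C was 1.05 (adjusted p = 0.186), and with each row's median removed 0.94 (adjusted p = 0.318).

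NDUFS8, a complex I core subunit that carries iron-sulfur clusters, had 1.83, 1.72 and 1.07 on day 0 and 3.05, 2.94 and 2.19 on day 7, again with no overlap, a change of 1.19 ± 0.10 (adjusted p = 0.0131). The other 55 probes of its row had a median of 0.42, and with the trend removed NDUFS8 had 0.47 (adjusted p = 0.193). NDUFS6, a zinc-binding accessory subunit of complex I, had -0.32, 0.41 and 0.35 on day 0 and 1.06, 1.19 and 1.29 on day 7, a change of 1.04 ± 0.15 (adjusted p = 0.0416). The median of the other probes of row 7 was 0.60, and with the trend removed the change of NDUFS6 was 0.19 (adjusted p = 0.64).

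SDHD, which anchors complex II in the membrane, fell. Its levels were 2.38, 2.06 and 2.10 on day 0 and 0.74, 0.59 and 0.00 on day 7, a change of -1.74 ± 0.15 (adjusted p = 0.016). Of the other 49 probes in row 190, 24 fell and the median change was -0.91. With the trend removed SDHD had -1.03 (adjusted p = 0.148), and with each row's median removed -0.95 (adjusted p = 0.246). COX5B, in the same row, had -0.40 (adjusted p = 0.163). The other subunits of complex II, printed far from the edge, had 0.08 (SDHA), 0.18 (SDHB) and 0.17 (SDHC), so the drop of SDHD was not seen in the rest of its complex.

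None of the 4 passed with animal 58 left out, which leaves 2 livers: COX7C then had 2.38 (adjusted p = 0.096), NDUFS8 1.17 (0.134), NDUFS6 0.86 (0.180) and SDHD -1.78 (0.143). NDUFS8 and NDUFS6 also did not pass without animal 61 (0.0586 and 0.0885) or without animal 66 (0.0595 and 0.127).

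**Figure D2:**
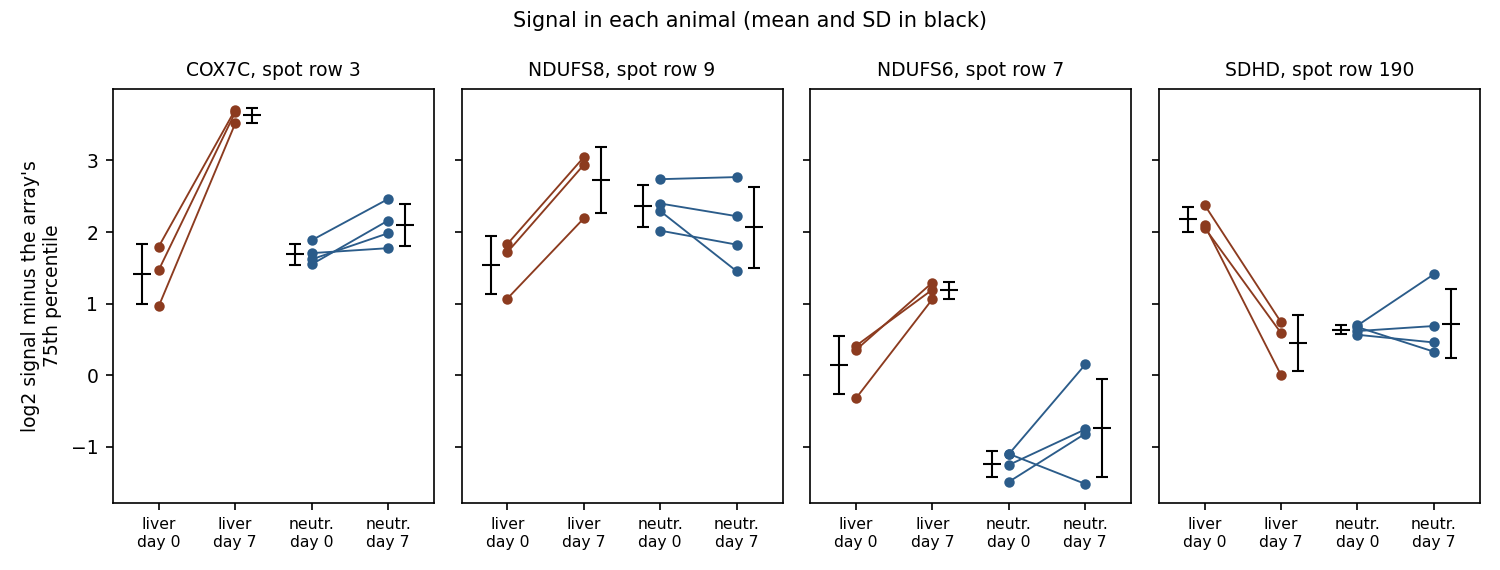
Signal (log2, relative to the array's 75th percentile) of COX7C, NDUFS8, NDUFS6 and SDHD in each animal on day 0 and day 7; lines join the days of 1 animal, and black bars give the mean and SD of each group (3 livers, 4 neutrophil samples). In liver every line of COX7C, NDUFS8 and NDUFS6 goes up and every line of SDHD goes down, while the neutrophil lines go both ways for NDUFS8, NDUFS6 and SDHD.

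Away from the edges the liver changes were small. With the first 40 and the last 40 rows left out, 45 of the 71 probes remained; their changes ran from -0.19 to 0.25, with 41 positive and a median of 0.115, against -0.043 over the 6472 probes tested there. In rows 1 to 16 the 7 members had a median of 0.58 and all probes 0.54; in the last 16 rows the 6 members had -0.30 and all probes -0.38. Over the whole array 58 of 71 changes were positive, with a median of 0.11 against -0.04 for all probes, of which 43.1% were positive. With the trend removed 65 were positive, with a median of 0.160 against 0.002 for all probes. The scaling sets how large this shift is: with quantile normalization the median was 0.025 and 42 were positive.

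**Figure D3:**
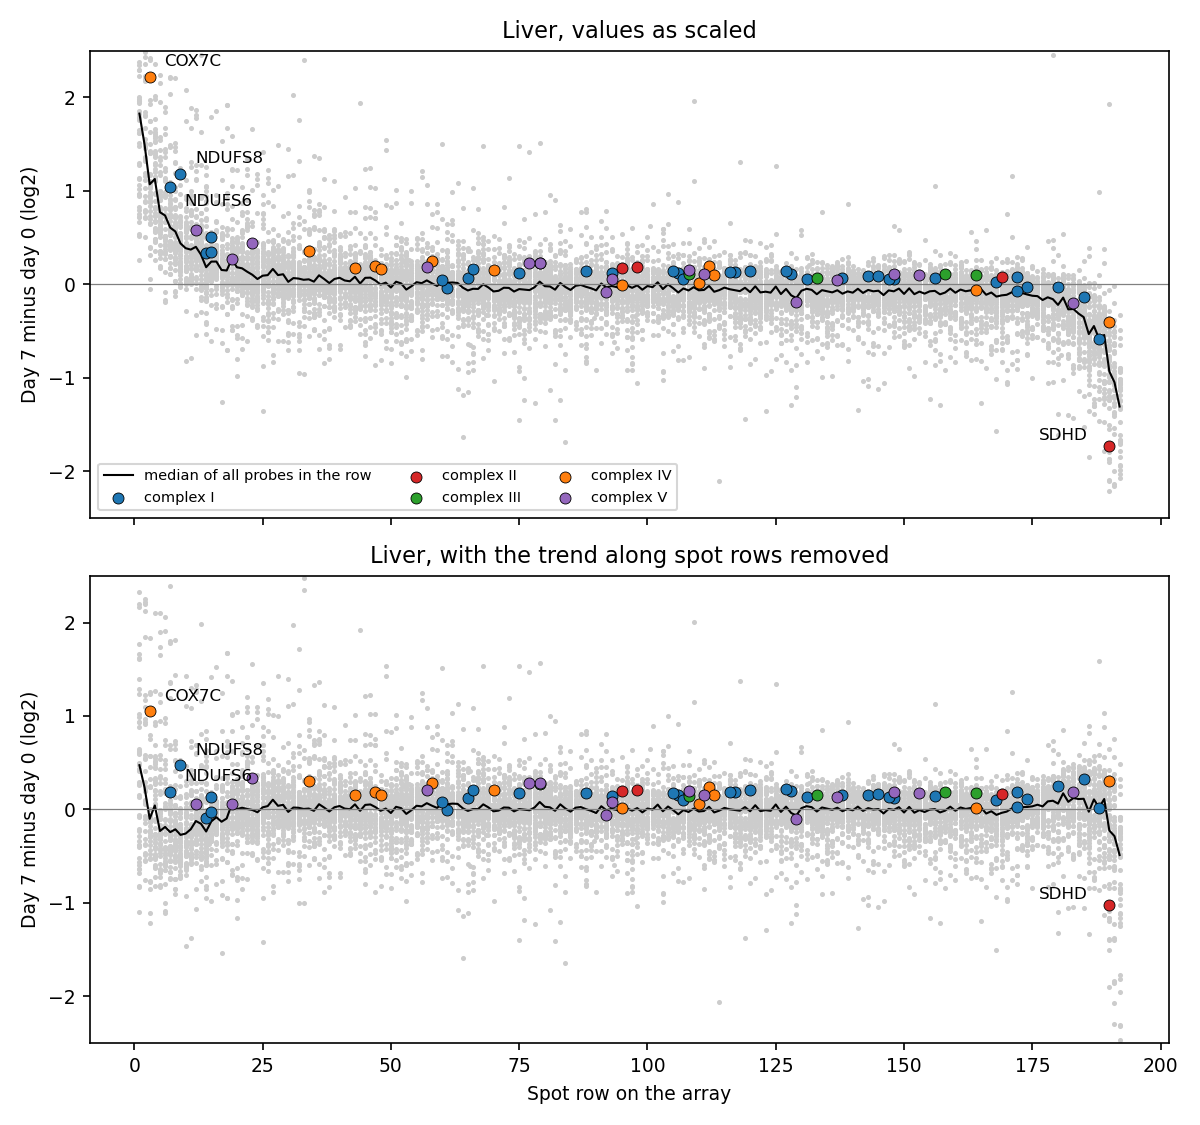
Change in liver (log2, day 7 minus day 0) of every probe tested by its spot row on the array, as scaled (top) and with the loess trend along the rows removed (bottom); coloured points are the 71 members by complex, grey points all probes, and the black line the row median. COX7C, NDUFS8 and NDUFS6 lie where the row median climbs in the top panel and SDHD where it drops; 71 probes lie outside the axis in the top panel and 33 in the bottom one.

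In liver 37 of the 71 changes were upward in all 3 animals (52.1%, against 17.8% of all probes tested) and 5 downward in all 3 (7.04%, against 22.7%). The medians by complex were alike, 0.086 for complex I, 0.125 for II, 0.107 for III, 0.169 for IV and 0.115 for V. By animal the members' medians were 0.073, 0.180 and 0.116 in animals 58, 61 and 66, with 47, 64 and 52 of 71 probes up. All probes had medians of -0.038, -0.015 and -0.021 in these animals.

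Complex III had no change past the test in liver, with UQCR11 at 0.23 and UQCRFS1 at 0.11. In complex V, ATP5F1D, the delta subunit of the F1 head, had 0.58 (adjusted p = 0.115) in row 12 and 0.06 with the trend removed, whereas ATP5MC1, in row 23, had 0.44 (adjusted p = 0.146) and 0.34. NDUFB1, in row 188, had -0.59 (adjusted p = 0.0923) and 0.01 with the trend removed. Of the isoforms, COX4I1, COX6A1, COX6B1, COX6B2, COX7A2 and COX8A had 0.18, 0.25, 0.10, 0.35, 0.20 and 0.17.

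COX7A1, the muscle isoform, had -1.24, -0.94 and -1.08 in liver on day 7 against -1.15, -0.81 and -1.33 on day 0, a change of 0.01 ± 0.12 (adjusted p = 0.973). Of the 10 skeletal muscle markers tested, 9 rose in the same livers, and 7 rose with the row trend removed (against 2.67% and 0.247% of all probes tested). For 5 of the markers (CKM, MB, MYH1, MYL1 and TNNC2) no liver array was well above background on day 0, and their rise was at least 6.85-fold (MYH1) to at least 62.4-fold (MYL1). MYH7 and DES were well above background on all liver arrays of both days. The other markers entered the test through day 7 alone, so the count favours genes that were high then. The part of muscle RNA in the other liver values was not tested. Of 14 hepatocyte markers 2 rose (median change 0.21), and 0 rose with the row trend removed.

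Some genes were read at more than 1 place on the array. NDUFAB1, the mitochondrial acyl carrier protein that also sits in complex I, has probes in rows 93 and 143 that share at most 6 bases in a row.
NDUFAB1 row 93: gaacgcatttctgcatcattgctgactttg
NDUFAB1 row 143: tcagaccccttttcctcattgagagaaggc
They changed by 0.12 and 0.08 in liver and by 0.20 and 0.27 in neutrophils, and differed between the tissues on day 0 by 1.94 and 2.13. The 3 spots of ATP5PB had liver changes of 0.11 (row 63), 0.05 (row 137) and -0.02 (row 155).

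COX6A1, the ubiquitous isoform of subunit VIa, is read by the member probe in row 58 and by another probe in row 10 that the files list under an older name. Capitals mark the parts of the 36 bases they share that fall in the printed stretches.
COX6A1 row 58: TATAGCAGGAAGAGATGGCTTaaataaata
COX6A1 row 10: tcactgatcTTCCATCCCTTTGCTTATAGC
The liver change was 0.25 in row 58 and 0.62 (adjusted p = 0.15) in row 10. With the trend removed the order turned, to 0.28 and -0.02. The tissue difference on day 0 was -0.18 in row 58 and -0.50 in row 10 (adjusted p = 0.0239), and 0.07 in row 10 with the trend removed.

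In neutrophils no subunit gene changed past the test between day 0 and day 7. Of all 9449 probes tested 0% passed, with the lowest adjusted p at 0.335 among the members and 0.301 overall (limma, animal as a block, 4 animals). At an unadjusted p under 0.05, 1 member rose and 0 fell, against 832 and 435 of all probes. Of the 71 changes 49 were positive, with a median of 0.17 against -0.07 for all probes. The medians by complex were 0.216 for I, 0.049 for II, -0.057 for III, 0.033 for IV and 0.251 for V. Of the markers of other blood cells, 4 of 4 B lymphocyte genes had positive changes (median 1.01) and 7 of 9 T cell genes (median 0.49), with 0 past the test, and their part in these values was not tested.

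The animals did not move together. The median change of the members was -0.03 in animal 25, 0.19 in animal 26, -0.20 in animal 32 and 0.54 in animal 34, with 33, 48, 18 and 52 of 71 probes up. All probes tested had medians of -0.137, -0.109, 0.085 and -0.122 in animals 25, 26, 32 and 34. The members' median was thus above that of all probes in animals 25, 26 and 34 and below it in animal 32. The members' median in the fit was -0.02 without animal 34 and 0.099 without animal 26. Its positive value thus rests on these 2 animals, most of all on animal 34. Of the 71 genes' probes 3 went up in all 4 animals and 6 down (4.23% and 8.45%, against 11.2% and 13.3% of all probes), a lower share than over the array.

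**Figure D4:**
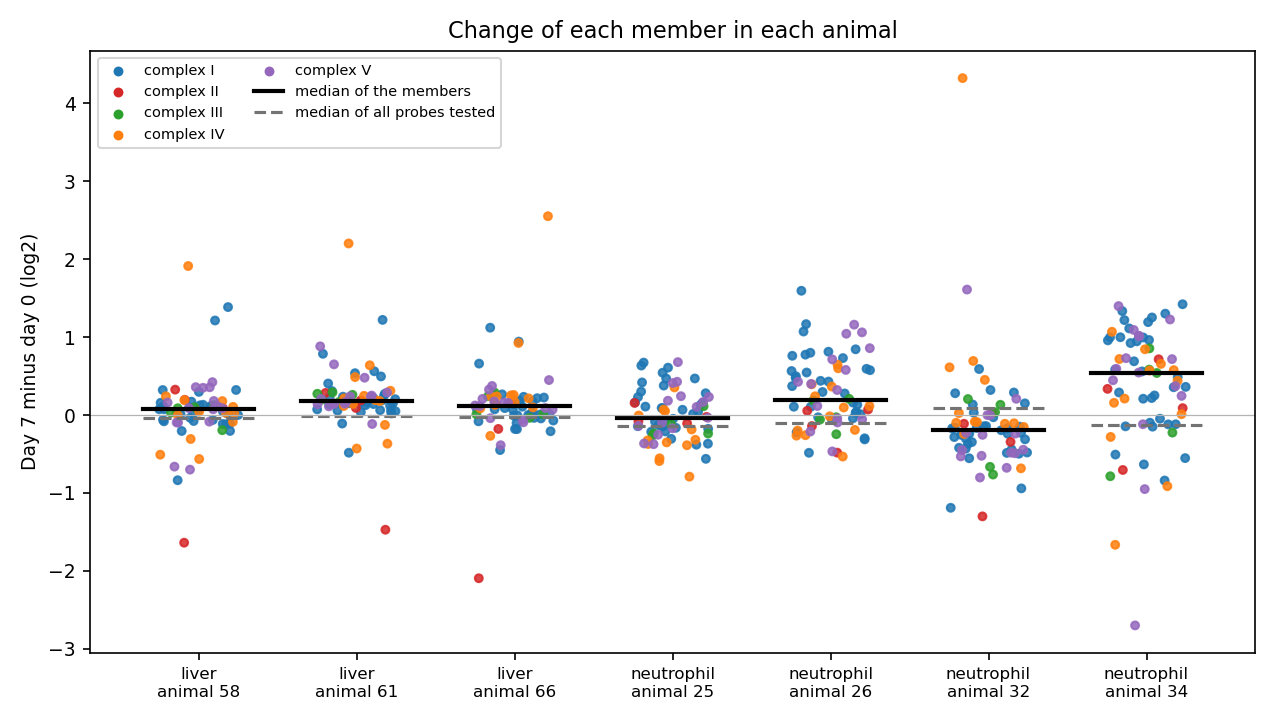
Change (log2, day 7 minus day 0) of each of the 71 probes in each animal, coloured by complex; black lines are the members' medians and dashed grey lines the medians of all probes tested. The liver points of each animal lie close to 0 apart from a few, while the neutrophil medians run from -0.20 in animal 32 to 0.54 in animal 34.

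In animal 34, whose day 7 array was the weakest, the change went with the base composition of the probe. Members with at most 36% G and C (20 probes) had a median change of 0.90, those between 36% and 50% (31 probes) 0.54 and those above 50% (20 probes) -0.02. In animal 26 the medians of these classes also fell (0.34, 0.30 and 0.06). They were 0.01, -0.10 and -0.02 in animal 25 and -0.26, -0.24 and -0.13 in animal 32. Across the 71 probes the correlation of change with the share of G and C was -0.49 for animal 34 and 0.04, -0.13 and 0.25 for 25, 26 and 32. Over all probes tested the values were -0.31 for animal 34 and -0.19, -0.10 and 0.12 for the others. These describe probes that share arrays and depth, and their part in the members' values was not tested.

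**Figure D5:**
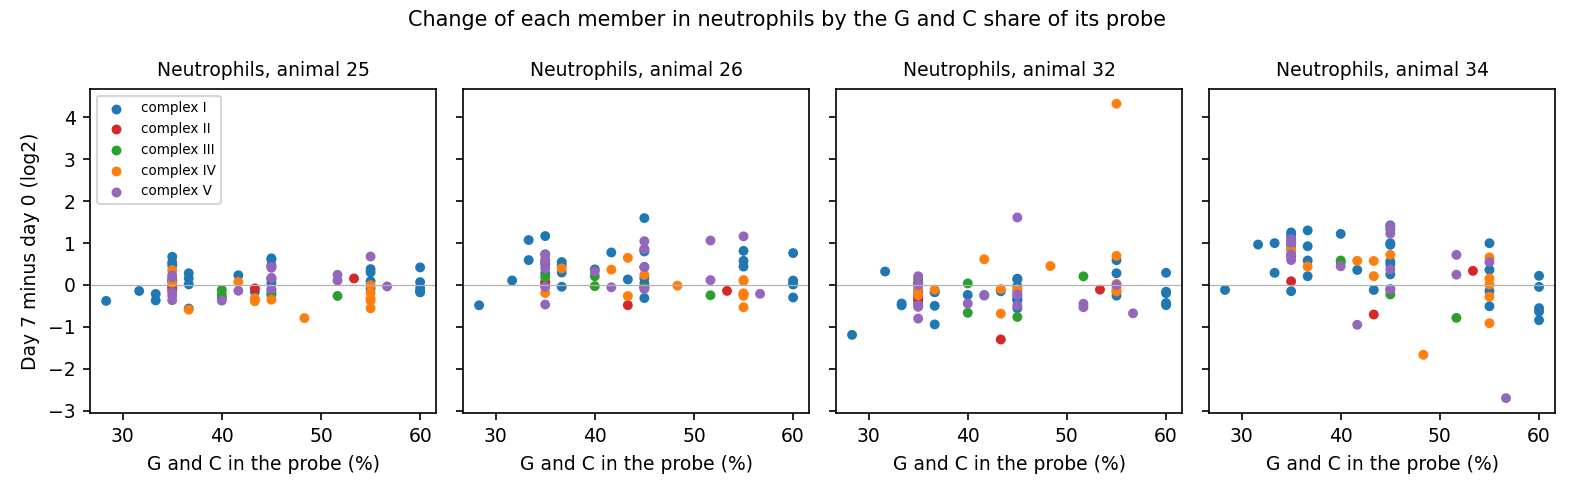
Change in neutrophils (log2, day 7 minus day 0) of each of the 71 probes against the share of G and C in the probe, 1 panel per animal, coloured by complex. In animal 34 the points fall from left to right (r = -0.49). In animal 26 the fall is weaker (r = -0.13), and animals 25 and 32 have r = 0.04 and 0.25.

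NDUFA5, an accessory subunit of the arm of complex I that lies in the matrix, had the lowest p of the members. Its levels in animals 25, 26, 32 and 34 were -1.27, -2.12, -1.26 and -1.12 on day 0 and -0.80, -0.53, -1.12 and 0.22 on day 7, higher in each animal but with overlap of the days, a change of 0.88 ± 0.32 (adjusted p = 0.335). NDUFV3, the accessory subunit that was higher in neutrophils than in liver, had 4.13, 4.44, 3.99 and 4.08 on day 0 and 3.74, 3.96, 2.80 and 3.96 on day 7. The days did not overlap, and the change was -0.54 ± 0.27 (adjusted p = 0.416). SDHB had 0.09, 0.29, 0.58 and -0.01 on day 0 and 0.00, -0.19, -0.72 and -0.71 on day 7, lower in each animal (-0.64 ± 0.28, adjusted p = 0.377), while SDHD had 0.08, SDHC 0.04 and SDHA 0.06.

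In complex III, UQCRC2 had 0.32 and CYC1 -0.32. COX7A1 had 0.82, 1.65, 0.66 and 1.85 on day 0 and 0.44, 1.11, 4.98 and 2.50 on day 7: animal 32 alone rose to 4.98, animals 25 and 26 were lower, and the change was 1.02 ± 0.77 (adjusted p = 0.553). COX6B2 had -0.51. ATP5F1D had 0.09, 0.36, 0.53 and 0.41 on day 0 and 0.06, 0.14, -0.15 and -2.29 on day 7, so the change of -0.91 ± 0.46 (adjusted p = 0.422) comes mostly from animal 34. ATP5MC1 was at 0.86, 0.68, 0.80 and 1.19 on day 0 and at 1.29, 1.54, 2.41 and 1.07 on day 7, higher in 3 of 4 animals (0.69 ± 0.33, adjusted p = 0.398).

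The day changes in liver and neutrophils were also compared directly. COX7C changed by 1.82 ± 0.28 more in liver (adjusted p = 0.0276) and SDHD by -1.82 ± 0.33 (adjusted p = 0.0441); 1.14% of the 8841 probes tested differed, 0.724% upward and 0.419% downward. In neutrophils COX7C went from 1.70, 1.62, 1.55 and 1.88 to 1.77, 1.98, 2.16 and 2.46, a change of 0.41 (adjusted p = 0.462), and SDHD from 0.56, 0.62, 0.67 and 0.69 to 0.46, 0.69, 0.33 and 1.41. COX7C was thus higher on day 7 in all 7 animals, by 1.91, 2.20 and 2.55 in liver and by at most 0.61 in neutrophils. With the row trend removed from the arrays of both tissues neither difference passed (0.80, adjusted p = 0.397, and -1.32, adjusted p = 0.225). Of all probes 0.136% did. Both calls were also lost without any 1 of animals 25, 26, 58, 61 and 66. The differences themselves stayed between 1.65 and 1.97 for COX7C and between -1.96 and -1.61 for SDHD with 1 animal left out.

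NDUFS8 had a difference of 1.48 (adjusted p = 0.0519), with neutrophil levels of 2.40, 2.74, 2.02 and 2.29 on day 0 and 2.22, 2.77, 1.82 and 1.45 on day 7. ATP5F1D had 1.49, and without animal 34 NDUFS8 passed (adjusted p = 0.0225). NDUFB1 had -0.85, ATP5F1E -0.50, and in complex III CYC1 had 0.39 and UQCRC1 0.37. With the row trend removed NDUFS8 had 0.80 (adjusted p = 0.371), ATP5F1D 0.94 (adjusted p = 0.587) and NDUFB1 -0.40 (adjusted p = 0.698). Over the 71 probes 34 differences were positive and 37 negative, with a median of -0.07 against 0.03 for all probes.

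Genes around the chain were taken from lists of pathway members. Over all probes tested 39.7% passed as higher in liver on day 0 and 43.5% as lower, 83.1% in all. COQ5, CKMT2 and PDHA1 of these lists were well above background on 0 neutrophil arrays of day 0 and were tested through the liver arrays. Of 16 genes listed as assembly factors, which help to build the complexes, 12 were higher in liver on day 0 and 2 lower; 1 of the 16, DMAC2L, is also a member, and 11 of the other 15 were higher. Among them were ATPAF2, an assembly factor of the F1 head (2.30), and COA8, an assembly factor of complex IV (2.14). Of 14 citric acid cycle genes 11 were higher and 1 lower, with IDH3G at 2.64 and PC, the pyruvate carboxylase that replenishes the cycle, at 5.83. Of 11 genes for electron carriers and enzymes that feed the chain 8 were higher and 1 lower; DHODH, of pyrimidine synthesis, had 4.38 and PRODH, the proline dehydrogenase, -4.75. The nucleotide and phosphate carriers, uncoupling proteins and porins split into 7 higher and 3 lower of 14, with SLC25A4, the ADP/ATP carrier of heart and muscle, at 5.37 and UCP2, an uncoupling protein of immune cells, at -5.27. Regulators of mitochondrial biogenesis split into 2 higher and 3 lower of 8, with TFB1M, a mitochondrial rRNA methyltransferase, at -9.39. PPARGC1A, the coactivator PGC-1α, was not well above background on any neutrophil array of day 0 and was at least 13.7-fold higher in liver, taking the lowest signal among probes well above background as the bound.

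Few of these genes changed over the 7 days. In liver 1 assembly factor rose and 1 porin fell, both at the edge of the array. Over all probes tested in liver 2.67% rose and 1.31% fell. COX17, the copper chaperone of complex IV, in row 2, rose by 3.39 ± 0.20 (adjusted p = 0.00788) and had 2.13 (adjusted p = 0.0729) with the row trend removed. VDAC2, a channel of the outer membrane, in row 192, fell by 1.62 on the log2 scale (adjusted p = 0.0371) and had -0.80 (adjusted p = 0.268) with the trend removed. None of the 11 electron carrier genes, 14 citric acid cycle genes and 8 regulators passed in liver, where COQ5 of ubiquinone synthesis had -1.01, SUCLG1 0.33 and IDH3B -0.42. In neutrophils none of the 5 lists had a gene past the test. Among those furthest from 0 in their lists were the assembly factor TMEM126B (0.88), CYCS, which is cytochrome c itself (0.98), COQ8A of ubiquinone synthesis (-1.53), the citric acid cycle enzymes IDH3A (0.99) and DLST (-1.21) and the mitochondrial transcription factor TFB2M (0.99).

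The array also holds 8 probes for subunits that the files list under older names and that the name rule does not take. On day 0 UQCRQ (2.58), UQCR10 (2.31), NDUFA11 (2.31), NDUFA12 (2.29), ATP5IF1 (2.07), which is the inhibitor of the ATP synthase, and NDUFA13 (1.82) were higher in liver. NDUFB11 in row 14 and COX6A1 in row 10 were lower (-0.47 and -0.50), near the edge of the array, and had -0.08 and 0.07 with the trend removed. None of the 8 changed past the test between the days in either tissue.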

How the data were processed

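Total RNA, extracted with Trizol and labelled with Cy3 by linear amplification per the labels' protocols, was hybridised to 14 arrays, 1 per animal and day. The deposited intensities come from Agilent's Feature Extraction software (9.5.1.1 in the file headers, 9.5 in the submitters' processing notes), which subtracts background and a spatial trend per the file headers. The authors' log2 value table equals log2 of these intensities less about the array's 75th percentile (r = 1; array offsets of 0.00692 to 0.0130; column medians from -3.55 to -2.69), which settles its scale, centring and direction. Grid rows and the flags for outlying, saturated and well-above-background spots are further columns of these files, per the file headers. Coordinates are not reported, as the sources used here name no genome build.

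Outlier spots (0 to 18 per array) and controls were left out, and spots of 1 sequence were averaged. Values are log2 intensity minus the array's 75th percentile. A probe was tested when all arrays of 1 group or more showed it well above background. Tests used limma 3.58.1 (R 4.3.3; lmFit, eBayes) with the animal as a block for day comparisons and Benjamini-Hochberg adjustment over all probes tested (threshold 0.05). P-values are two-sided and errors are standard errors of the fit. The labels give the pairing, since each animal appears on both days. Across the days an animal's deviations from its group means correlated at 0.646 (animal 58), 0.315 (61) and 0.608 (66) for liver, and at 0.612 (25), 0.357 (26), 0.0298 (32) and 0.24 (34) for neutrophils. The trend along the 192 spot rows was removed with a loess curve (span 0.3) within each array as an alternative. Other alternatives were quantile normalization, normexp (offset 50) with quantile normalization, the authors' values, other filters, no block, 1 fit over all arrays, 1 probe per gene, the inner rows alone (without the 40 at each end) and each animal left out. Removing each row's median and adding 8 further subunit probes were chosen after seeing the data.

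Symbols come from the files' accessions and names through a RefSeq gene table (5996 of 15011 probes with 1 symbol). The text names, per complex and comparison, members past the threshold (at most 3, by size, where more passed), else the 2 with the largest change, genes with several probes, isoforms, the SDH genes and up to 2 genes of each other list; the remaining genes named were chosen after their values were seen, and some results under this rule are not reported here. The members and lists were chosen with earlier results of these data known. The fits were tested on simulated data.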

Additional observations from a re-analysis of the deposited data

Results flagged for a closer look

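The day change differed between the tissues for COX7C (1.82 higher in liver, adjusted p = 0.0276) and SDHD (-1.82, adjusted p = 0.0441) in limma's test of the difference, in which 1.14% of all probes passed. Both probes lie at the edge of the array, and neither passed with the trend along the rows removed (0.80 and -1.32).

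Single neutrophil samples stood far from the other 3 in 5 of 102 sets of 4 values looked at (34 genes; gap over range above Dixon's 95% critical value), and chance alone marks about 1 set in 20. Animal 34 had the lowest ATP5F1D on day 7 (-2.29, others -0.15 to 0.14), the highest COX6A1 on day 7 (3.04, others 1.72 to 1.90) and the highest change of UQCRC2 (0.86, others 0.11 to 0.19). The probe in row 10 that overlaps the COX6A1 probe was also highest in animal 34 on day 7 (5.45, others 4.01 to 4.21). Animal 26 had the lowest NDUFA5 (-2.12, others -1.27 to -1.12) and the highest COX6B2 (2.07, others 1.53 to 1.56) on day 0.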

How the results depend on the processing

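The results came from 3 livers and 4 neutrophil samples, and the 4 genes that passed in liver lie at the edge of the array. Of the 3 genes that rose in liver, 1 (COX7C) passed with no replicate block, which gave no other change in the members' counts of calls. In liver 0 rose and 0 fell with no filter on dim probes, with the row trend removed or with each row's median removed. With 1 animal left out 0 to 1 rose and 0 to 1 fell. The run on the inner rows alone cannot test these 4 genes, which lie outside them, and 0 of the members there rose or fell. With normexp and quantile normalization 2 fell, NDUFB1 besides SDHD. The liver median of 0.114 was 0.0249 with quantile normalization and 0.0248 with normexp and quantile normalization together. For the difference between the day changes, 2 genes were higher when probes had to be well above background on every array. With no filter, the row trend removed or each row's median removed, 0 were higher or lower. The inner rows alone also gave 0, but they hold neither COX7C nor SDHD and so cannot test those calls. With 1 animal left out 0 to 2 were higher and 0 to 1 lower. Between the tissues on day 0 the median of 1.22 was 1.52 with quantile normalization and 1.51 with normexp and quantile normalization together. The inner rows held 45 members, of which 33 were higher and 4 lower in liver on day 0 and 28 and 2 on day 7. Of all probes tested in these rows, 2756 of 6758 were higher and 2842 lower on day 0. On day 7 the counts were 2071 and 2024 of 5962. In neutrophils every alternative run gave 0 calls. The sign was followed across the alternatives for 34 of the 71 member probes. None of these that passed a test changed sign in it under an alternative that was run. The cause of these shifts was not tested. All 71 member probes were well above background on all 14 arrays, the weakest of which was day 7 of animal 34.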
